A study of Mus musculus with 3 samples.

Results

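The heat shock chaperone genes described here are 10 mouse genes that code for proteins that fold other proteins: Hsp90aa1, Hsp90ab1, Hspa1l, Hspa2, Hspa4, Hspa4l, Hspa5, Hspa8, Hspa9 and Hspd1. Their small RNAs were found by sequence. A listed sequence was counted for a gene when it matched, exactly and over its whole length, a GENCODE vM21 transcript of that gene annotated on the chromosome given in the list. Sense matches, which have the sequence of the mRNA, were kept apart from antisense matches. All 10 genes had sense sequences, against 71% of all protein-coding genes. Together they had 1579 sense and 38 antisense sequences, and the sense ones made up 0.0712% of the 2219118 distinct sequences listed.

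The sequences come from small RNAs that were pulled down with the proteins Mili or Tdrd1 from testes of C57BL/6 mice, in 3 libraries with 1 library per group. The groups were a Mili precipitate from testes lacking Tdrd1 at 15 days after birth, a Tdrd1 precipitate from adult testes and a Mili precipitate from adult wild-type testes. Neither the kind of knockout allele nor the number of animals is stated in the labels, and the knockout differed from the wild type in age as well as genotype. The deposited list pools the series and gives each sequence once, with a chromosome, a start and an end on the mouse build mm9 but without read numbers, strands or libraries. No value can therefore be given per library, no comparison of knockout with wild type could be made, and the depth of each library is unknown. A distinct sequence is the unit below, and its number says how many different small RNAs of a gene were seen, not how abundant they were.

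Tdrd1 itself had 133 sense and 6 antisense sequences in the pooled list, which cannot check the knockout label. Of the defining genes of germ cells, 8 of 8 had listed sequences, at a median density of 81.9 per kb (40.1 to 165), density being the number of distinct sense sequences of a gene per kb of its merged exons. The median was 0.696 per kb (0 to 2.99) for 6 Sertoli cell markers and 0.0803 (0 to 2.38) for 8 markers of peritubular, endothelial and blood cells. It was 0.374 for 6 Leydig cell markers, of which Cyp17a1 and Hsd3b6 were at 0 while Star, with 19.0 per kb, and Insl3, with 11.2, were above the median of protein-coding genes. The part of any other cell type in the results below was not tested. In precipitates from whole testis, fewer cells of a type, less RNA per cell and less of that RNA pulled down with Mili or Tdrd1 cannot be told apart.

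Piwi proteins such as Mili carry piRNAs, small RNAs of animal germ cells that mostly begin with uridine, and Tdrd1 is a Tudor-domain protein that binds Mili. Many piRNAs of the testis are cut from long single-stranded transcripts, including mRNAs, and those of an mRNA carry its own sequence. HSP90 and HSP70 proteins use ATP to fold client proteins, HSP70 with the help of HSP40 proteins and of exchange factors that release ADP. HSP60 is the folding chamber of mitochondria. The testis is known for forms of HSP70 and of its partners that are made mainly in germ cells, and an HSP90 machinery is known from flies and mice to act in the making of piRNAs.

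The listed RNAs formed ladders: several sequences shared a 5′ end and differed at the 3′ end. The most extended ladder among the 10 genes lay in the coding region of Hspa5, where 7 sequences of 23, 24 and 26 to 30 nt began at the same base (plus strand, chr2:34628788-34628817 for the longest, mm9). They are shown because they make visible what a fixed start and a varying end are. Sequences are written as in the list, with T for U, 5′ to 3′, and the capitals mark the first base and base 10.
Hspa5, 23 nt: TaaaatgaaGgagactgctgagg
Hspa5, 24 nt: TaaaatgaaGgagactgctgaggc
Hspa5, 26 nt: TaaaatgaaGgagactgctgaggcgt
Hspa5, 27 nt: TaaaatgaaGgagactgctgaggcgta
Hspa5, 28 nt: TaaaatgaaGgagactgctgaggcgtat
Hspa5, 29 nt: TaaaatgaaGgagactgctgaggcgtatt
Hspa5, 30 nt: TaaaatgaaGgagactgctgaggcgtattt

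For 8 of the other genes, the longest sequence of up to 30 nt at the 5′ end with most 3′ ends is given, so that first bases and positions can be compared. Where several 5′ ends tied, as in Hspa1l, Hspa2 and Hspa8, the lowest start was taken. No sequence is printed for Hspa9, whose 3 tied 5′ ends had 4 sequences each, the lowest in coding sequence. The printed sequences lie in coding sequence except that of Hspa4l, in the 3′ untranslated region, and that of Hspa8, in the 5′ untranslated region. The first base and base 10 are again in capitals, positions are mm9, and each strand is named in the gene's description below. Of these 8 sequences, only that of Hspd1 does not begin with U.
Hsp90aa1, chr12:111931257-111931286: TgaaggactActgtaccagaatgaaggaaa
Hsp90ab1, chr17:45706672-45706701: TgagaacaaGaagaagaagaacaacatcaa
Hspa1l, chr17:35114302-35114330: TggtactgaCgaagatgaaggagactgca
Hspa2, chr12:77507164-77507193: TacctacaaCatcaagcagaccgtggaaga
Hspa4, chr11:53078580-53078608: TgaaaattgGctgtatgaagatggagaag
Hspa4l, chr3:40599751-40599780: TgacataacAgacatgaacagacataagaa
Hspa8, chr9:40609266-40609293: TaagaagctAtgatcggcagcgggatgg
Hspd1, chr1:55136980-55137009: AtatgaaaaAgaaaagctgaacgagcgact

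Every chaperone gene lay above the median of protein-coding genes in sense sequences, and the genes differed among themselves beyond counting error. The median over the 10 genes was 29.4 sense sequences per kb of exon (range 13.0 to 90.4), against 2.89 per kb over all 21951 protein-coding genes. Of the 10 genes, 10 were above that median, which 50% of protein-coding genes exceed, and 5 were above the 90th percentile of protein-coding genes, 30.0 per kb. There were 100 or more sense sequences in 6 of the 10 genes, against 14.5% of all protein-coding genes. Intervals given with densities are exact Poisson 95% intervals. They cover counting error only, and since neighbouring sequences of an mRNA are not independent, real errors are larger.

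The HSP90 pair differed. Hsp90ab1, the constitutive cytosolic form, had 271 sense sequences or 90.4 per kb (79.9 to 102), the highest density of the 10 and rank 289 among protein-coding genes. They spread from 45704790 to 45710153 on chromosome 17, minus strand, and covered 57.5% of its longest coding transcript, the largest gap being 115 nt. Hsp90aa1, the form that stress induces, had 79 sequences or 20.1 per kb (15.9 to 25.0), rank 3616, between 111929510 and 111933728 on chromosome 12, minus strand. Its sequences covered 8.87% of the transcript, and 42 of the 76 on that transcript (55.3%) lay in the 200 nt that begin at its position 1498. The low coverage of Hsp90aa1 went together with copies of its sequence elsewhere in the genome, given below.

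Among the HSP70 genes the 2 testis forms had more than the constitutive one per kb of exon, an order that turned per kb of single-copy sequence, where Hspa8 had 103, Hspa2 had 74.0 and Hspa1l had 34.2. Hspa2, which acts in spermatocytes and spermatids and is required for male meiosis in the mouse, had 186 sense sequences or 70.3 per kb (60.6 to 81.2) on chromosome 12, plus strand, from 77505238 to 77507887, at rank 522. It has a single exon, and 63 of the 184 sequences on its longest transcript (34.2%) lay in the 200 nt from position 1703, near the end of the coding region. Hspa1l, a testis form made in spermatids, had 70 sequences or 28.3 per kb (22.1 to 35.8) on chromosome 17, plus strand, 35109773 to 35116011, at rank 2383. Hspa8, the constitutive cytosolic HSP70 that also serves as a clathrin uncoating ATPase, had 56 sequences or 13.0 per kb (9.84 to 16.9) on chromosome 9, plus strand, 40609266 to 40613237, at rank 5430. This was the lowest density of the 10 genes per kb of exon. Hspa8 hosts small nucleolar RNA genes in its introns, and 2 of its sequences also matched another gene.

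The organelle chaperones ranged widely. Hspa5, the HSP70 of the endoplasmic reticulum known as BiP, had 195 sense sequences or 46.1 per kb (39.9 to 53.1) on chromosome 2, plus strand, 34627612 to 34632933, at rank 1127. Hspa9, the mitochondrial HSP70 known as mortalin, had 131 sequences or 30.4 per kb (25.4 to 36.1) on chromosome 18, minus strand, 35097335 to 35112119, at rank 2156. Hspd1, which codes for HSP60, had 41 sequences or 15.5 per kb (11.1 to 21.1) on chromosome 1, minus strand, 55134957 to 55144907, at rank 4638. In Hspd1, 18 of the 40 sequences on the longest transcript (45.0%) lay in the 200 nt from position 1394, and 11.7% of the transcript was covered.

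Hspa4 and Hspa4l code for large HSP70 relatives that act as exchange factors, Hspa4l being abundant in testis. Hspa4 had the highest number of the 10 genes, 355 sense sequences or 64.2 per kb (57.7 to 71.3), on chromosome 11, minus strand, 53073354 to 53113943, at rank 644. Hspa4l had 195 sequences or 16.5 per kb (14.3 to 19.0) on chromosome 3, plus strand, 40548567 to 40599989, at rank 4391. Its merged exons are 11792 nt long, the longest of the 10, and its 3′ untranslated region alone is 6714 nt. In the order of densities per kb of exon, Hsp90ab1, Hspa2 and Hspa4 form a top group in which the intervals of neighbours overlap. Hspa5 stands below Hspa4 and above Hspa9 with no overlap of intervals, and from Hspa9 down through Hspa1l, Hsp90aa1, Hspa4l, Hspd1 and Hspa8 each neighbour's interval overlaps the next.

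**Figure D1:**
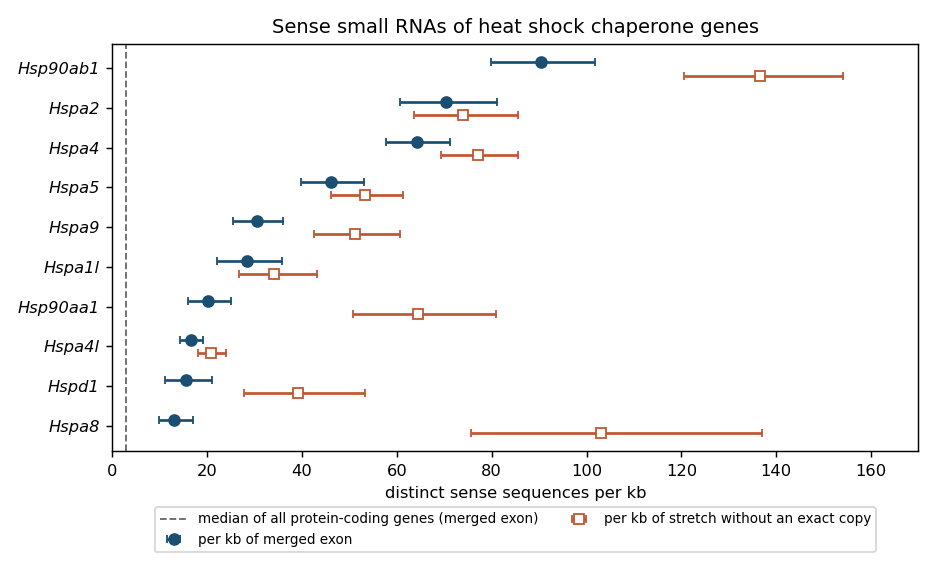
Distinct sense sequences per kb for each gene, with exact Poisson 95% intervals, per kb of merged exon (filled circles) and per kb of 27-nt stretches with no exact copy in another annotated transcript (open squares), beside the median of all protein-coding genes per kb of merged exon (dashed line, 2.89). Hspa8 is the lowest gene on the first scale, at 13.0, and the second highest on the other, at 103.

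Exact copies of a chaperone mRNA elsewhere in the genome moved with where its small RNAs were listed. Each transcript was cut into all of its 27-nt stretches, 27 nt being the most common length of the sequences, and a stretch was counted as copied when it also stood in an annotated transcript of another place. The share copied was 80.7% in Hspa8, 64.3% in Hsp90aa1 and 58.3% in Hspd1, each with a processed pseudogene as the leading copy (Gm15459, Gm12346 and Hspd1-ps3). It was 22.8% in Hsp90ab1, 17.1% in Hspa9 and 16.2% in Hspa1l, whose leading copy is its neighbour Hspa1a, and from 0% to 1.58% in Hspa4, Hspa5, Hspa2 and Hspa4l. Over the 10 transcripts 19.5% of 36174 stretches were copied, but only 9 of the 1557 sequences placed on them (0.578%) were at a copied place. The list gives 1 position for each sequence, and the sources used here do not say how the authors treated sequences that fit several positions.

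Counted per kb of single-copy stretches of the longest transcript, the order of the genes changed. This scale differs from that per kb of exon both in the transcript and in the removal of copied stretches, so the density per kb of all stretches of the same transcript is given where the steps differ most. Per kb of all stretches it was 19.8 in Hspa8, 23.3 in Hsp90aa1, 16.7 in Hspd1, 43.3 in Hspa9, 77.1 in Hspa4 and 107 in Hsp90ab1. Per kb of single-copy stretches, Hspa8 had 103 per kb (75.7 to 137), next below Hsp90ab1 with 137 (121 to 154). Hsp90aa1 had 64.5 (50.8 to 80.9), Hspa9 had 51.1 (42.6 to 60.7) and Hspd1 had 39.0 (27.8 to 53.4). In proportion to their density, the step from all to single-copy stretches thus moved Hspa8, Hsp90aa1 and Hspd1 most. In sequences per kb, Hsp90ab1 moved more than Hspd1. Hspa4, which has no copied stretch, had 77.1 (69.3 to 85.6), Hspa2 had 74.0 (63.7 to 85.5) and Hspa5 had 53.3 (46.1 to 61.4). Hspa1l had 34.2 (26.6 to 43.2), and Hspa4l was the lowest with 20.9, its interval lying below that of Hspa1l. On this scale Hspa8 was above Hspa1l, the reverse of their order per kb of exon, and its interval overlapped that of Hspa2. The same count was not made for all protein-coding genes, so that ranks apply to the exon scale only.

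**Figure D2:**
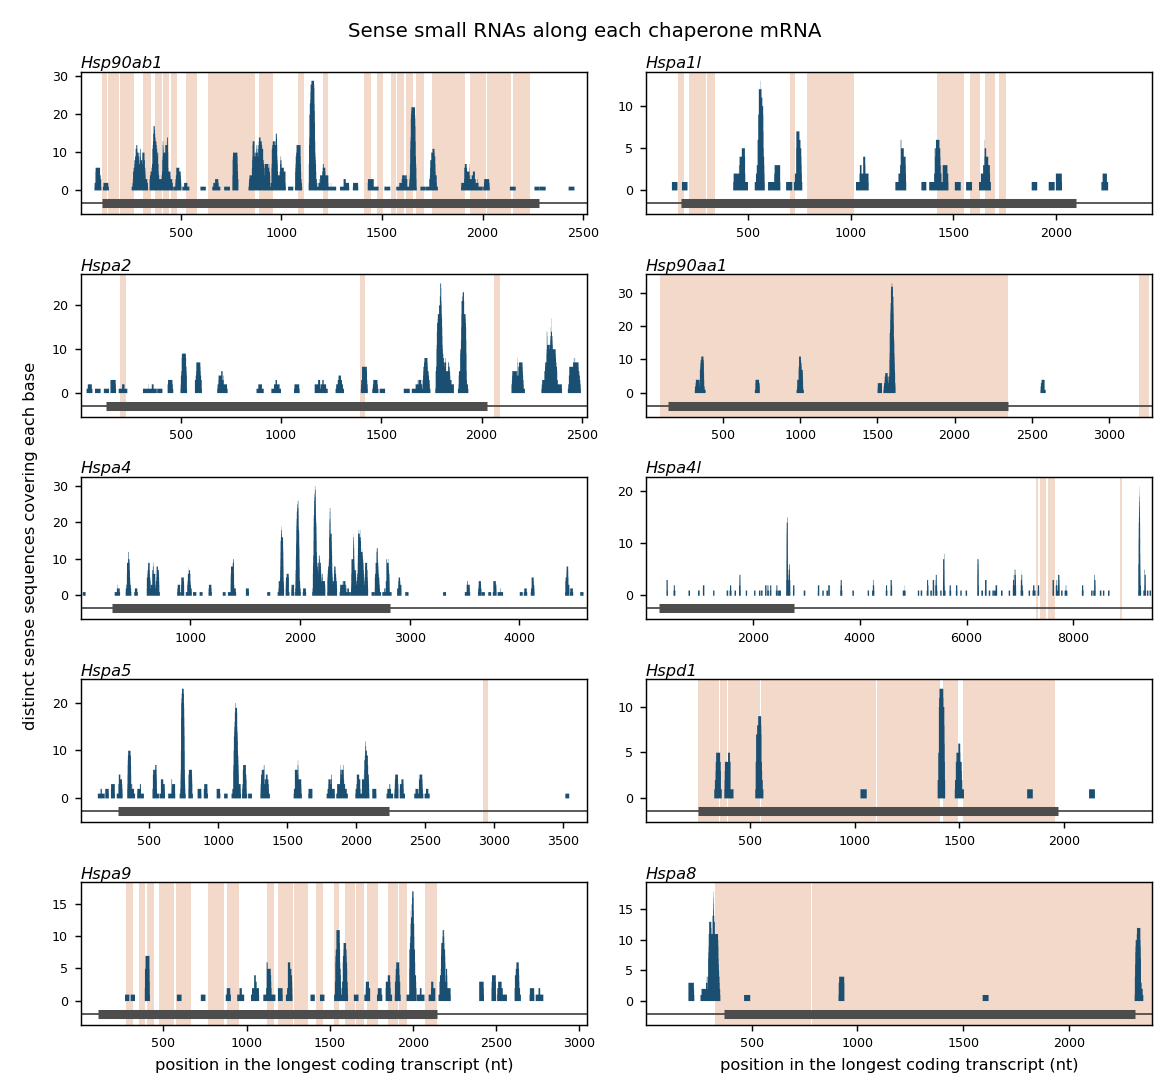
Number of distinct sense sequences covering each base (vertical axis) along the longest coding transcript of each gene (horizontal axis, nt from its 5′ end), with the coding region as a thick bar and bases within copied 27-nt stretches shaded. Sequences sit in separate peaks, many of which in Hsp90aa1, Hspd1 and Hspa8 stand where copied stretches end or break. Others lie away from copies, such as that at position 200 of Hspa8, whose first copied stretch begins at 326. In all, 1557 sequences are drawn.

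The chaperone sequences lay mostly in coding regions, unlike those of protein-coding genes at large. Of the 1567 sense sequences that matched a coding transcript, 76.8% (exact Clopper-Pearson 95% interval 74.6 to 78.8, as for all shares below) lay in coding sequence, 19.6% (17.7 to 21.6) in the 3′ untranslated region and 3.64% in the 5′ untranslated region. By length, averaged over every match of a sequence to a coding transcript, these transcripts are 66.7% coding, 26.2% 3′ untranslated and 7.14% 5′ untranslated. All shares expected by length are averages of this kind, so they depend on which transcript forms are annotated. Over all protein-coding genes 44.2% lay in coding sequence and 52.0% in the 3′ untranslated region, where 40.0% would be expected by length. Summed over the 10 genes the share in the 3′ untranslated region was thus below the length share, and over all protein-coding genes it was above it. Hspa2 and Hspa8 went the other way from the sum, Hspa8 with sequences that lie at its stop codon. Hspa4l did so against the averaged length share, but not against that of its longest coding transcript.

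Hspa4l stood apart from the others. Of its 195 sequences 138, or 70.8% (63.8 to 77.0), lay in the 3′ untranslated region, and 28.7% lay in coding sequence. That region is on average 50.7% of the length of its coding transcripts. In the longest of them, which holds 194 of the sequences, it is 6714 of 9479 nt. Against that transcript, the share of Hspa4l was close to the length share. Its close relative Hspa4 had 11.9% in the 3′ untranslated region against 38.9% expected by length, and 87.9% in coding sequence. Without Hspa4l the share in the 3′ untranslated region over the genes was 12.3%. Hspa2 had 27.4% there, against 19.8% expected. Its 51 sequences there began between positions 2147 and 2463 of the longest coding transcript, whose coding region ends at 2027. The share in coding sequence was 97.0% in Hsp90ab1, 95.7% in Hspa1l, 95.1% in Hspd1, 94.7% in Hsp90aa1, 85.6% in Hspa5 and 73.3% in Hspa9, each above its length share, which ranged from 64.4% in Hspa5 to 85.1% in Hsp90ab1.

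Hspa8 was the only gene of the 10 with most of its sequences in the 5′ untranslated region: 34 of 52, or 65.4%, against 13.0% expected by length. Of the others 6 lay in its coding region, 11.5% against 83.6% expected, and 12 in its 3′ untranslated region, 23.1% (12.5 to 36.8) against 3.38% expected. These 12 form a single peak at the stop codon. They began at positions 2308 to 2319 of the longest coding transcript, whose coding region ends at 2311. Those that began in coding sequence were placed in the 3′ untranslated region by their midpoint. The coding region of Hspa8 is copied over 95.1% of its 27-nt stretches and its 3′ untranslated region over 84.2%, while 4.86% of the stretches of its 5′ untranslated region are copied. In Hsp90aa1 92.1% and in Hspd1 81.2% of the coding stretches are copied, yet 72 and 39 sequences lay in their coding regions, almost all at stretches that differ from every annotated copy. Their 3′ untranslated regions, on average 17.6% and 9.47% of transcript length, had 4 sequences in Hsp90aa1 and 1 in Hspd1. In the longest coding transcripts these regions are 935 of 3281 nt and 453 of 2423 nt.

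**Figure D3:**
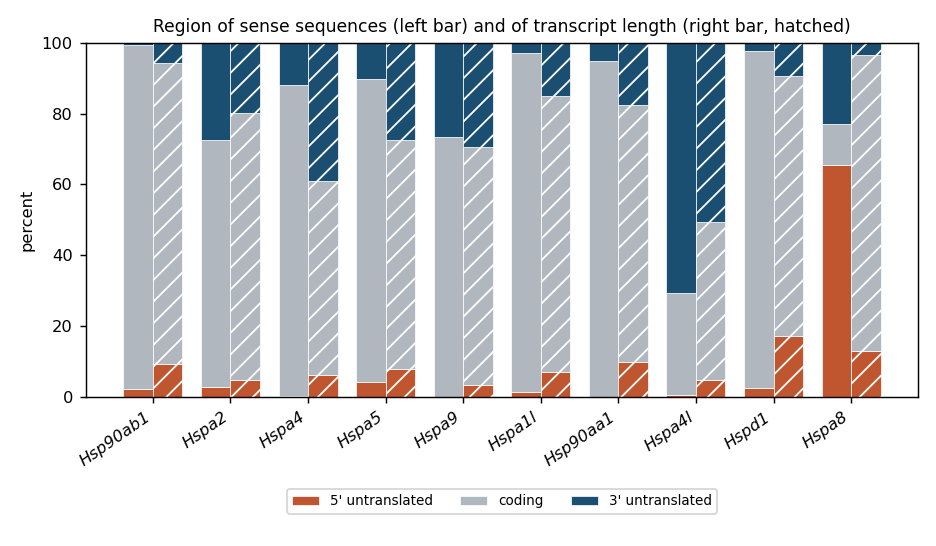
For each gene, the percent of its sense sequences in the 5′ untranslated, coding and 3′ untranslated region (left bar). The right bar, hatched, is the percent of the length of its coding transcripts in each, averaged over all matches of its sequences. Hspa4l is the gene with most of its sequences in the 3′ untranslated region (70.8%) and Hspa8 the gene with most in the 5′ untranslated region (65.4%).

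The chaperone sequences had the lengths of those of protein-coding genes but began with U less often than those of all protein-coding genes. Their length was 27.4 ± 1.60 nt (mean ± SD over 1579 sequences), and the same over all protein-coding genes. The most common length was 27 nt in every gene except Hspd1, where it was 28 nt. The range of 24 to 28 nt, which is typical of Mili, held 74.9% (72.6 to 77.0) of chaperone sequences, against 75.9% of those of protein-coding genes and 78.2% of the list. The RNA was cut from a gel at about 28 to 30 nt, which bears on all of these shares.

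Of the 1564 chaperone sequences of 24 to 32 nt, 54.3% (51.8 to 56.8) began with U, against 67.7% (67.6 to 67.7) of those of all protein-coding genes and 68.7% of the list. A began 22.6%, against 15.2% of those of protein-coding genes, G began 12.5%, against 7.85%, and C began 10.5%, against 9.24%. The share with A at base 10 was 32.7% (30.4 to 35.1), against 32.1%. U makes up a median of 22.9% of the coding sequence of the chaperone genes, against 22.2% over all protein-coding genes. Hsp90ab1, with 20.6%, Hspa1l, with 18.6%, and Hspa2, lower still, were below 22.2%, and the other chaperone genes above it. Within the sequences, taken over all regions, U was also less common in those of the chaperone genes at each base from 2 to 20 except base 19. It was 17.9% against 23.5% at base 9, and 22.2% against 21.6% at base 19. How far base composition bears on the share beginning with U was not tested.

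By gene, the share beginning with U ran from 39.2% (28.4 to 50.9) in Hsp90aa1 to 75.4% (63.5 to 84.9) in Hspa1l. Next to Hspa1l came Hspa4l with 68.9% (61.9 to 75.4). Hspd1 had 58.5% (42.1 to 73.7), Hspa8 had 57.1% (43.2 to 70.3) and Hsp90ab1 had 54.2% (48.1 to 60.3). The other 4 lay between 49.7% in Hspa5 and 51.7% in Hspa2, with 50.1% in Hspa4 and 50.4% in Hspa9. The interval lay wholly below 67.7% in 6 genes, Hsp90aa1, Hsp90ab1, Hspa2, Hspa4, Hspa5 and Hspa9, and included it in the other 4. Sequences with the same 5′ end share their first base, so these intervals and those by region below are too narrow.

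The share also differed between the regions of the mRNA. In coding sequence 49.5% (46.6 to 52.3) of chaperone sequences began with U, against 59.4% over all protein-coding genes. In the 3′ untranslated region it was 72.9% (67.5 to 77.8), against 75.3%, and in the 5′ untranslated region 60.0% (45.9 to 73.0), against 63.1%. The difference from protein-coding genes was thus largest in coding sequence, where most chaperone sequences lay, and in the untranslated regions the interval of the chaperone genes included the value of all protein-coding genes.

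**Figure D4:**
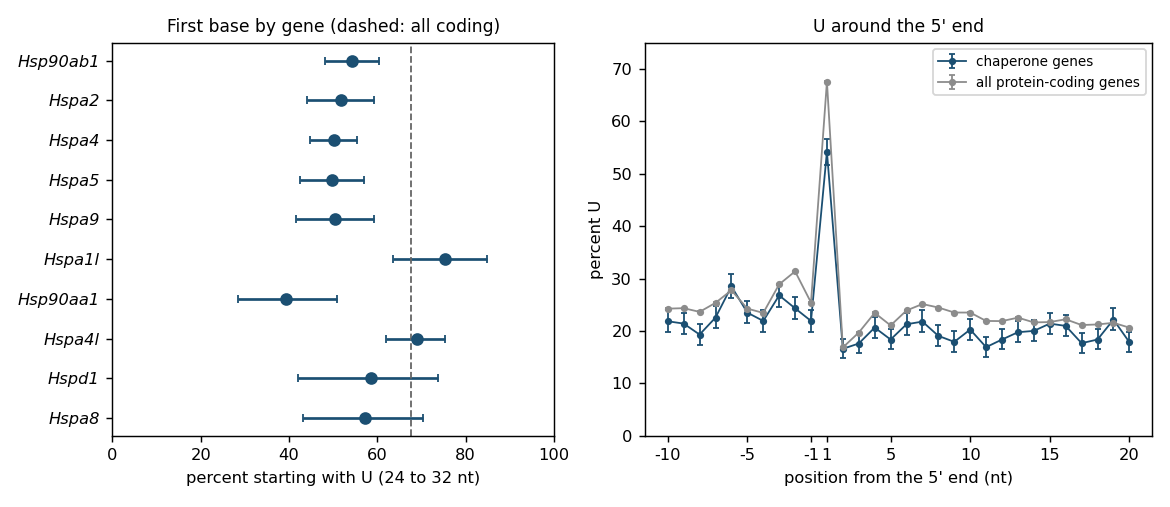
Left, the percent of sense sequences of 24 to 32 nt that begin with U in each gene, with exact 95% intervals, beside the value of all protein-coding genes (dashed, 67.7). Right, the percent of U at positions around the 5′ end for the chaperone genes and all protein-coding genes, where position 1 is the first base and position -1 the base before it; both have their highest value at position 1, 54.2 for the chaperone genes and 67.6 for protein-coding genes, and smaller rises before it, such as 28.5 at position -6 for the chaperone genes.

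The first base and the number of 3′ ends moved together. The 1579 sequences had 1104 different 5′ ends, or 1.43 sequences for each 5′ end, against 1.42 over all protein-coding genes. Of the 805 5′ ends listed with a single 3′ end, 44.7% (41.2 to 48.2) were U. Of the 178 with 2 different 3′ ends 51.7% were U, and of the 121 with 3 or more 72.7% (63.9 to 80.4) were U. The values over all protein-coding genes were 56.1%, 73.1% and 84.9%, higher in each class. Counting each 5′ end once, 49.1% of the chaperone genes' 5′ ends and 61.6% of those of protein-coding genes were U.

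The base after the 3′ end of chaperone sequences was no richer in U than the bases around it. Where piRNAs are cut one after another from a transcript, the base after the 3′ end of one tends to be the U that starts the next. The base after the 3′ end was U in 21.8% (19.8 to 23.9) of chaperone sequences, against 26.0% over all protein-coding genes. The share of U was 23.8% at the last base of the sequence itself and between 19.4% and 23.8% at positions 2 to 10 beyond the end. Over all protein-coding genes it was 25.5% at the last base and between 24.6% and 25.3% at positions 2 to 10, close to their 26.0%. Pairs in which a 5′ end lay 1 nt after a 3′ end numbered 79, within the 64 to 93 pairs found at distances from -10 to 20 nt. By gene the share ran from 14.3% in Hspa1l to 39.6% (26.5 to 54.0) in Hspa8, where 21 of 53 sequences were followed by U. Of the 47 Hspa8 sequences on the longest transcript, 29 (61.7%) lay in the 200 nt from position 200.

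Antisense sequences were few, and Hspa1l had most of them. Over the 10 genes 38 of 1617 sequences, or 2.35% (1.67 to 3.21), were antisense, against 3.83% over all protein-coding genes. Hspa1l had 28 of the 38, Hspa4 had 4, Hspd1 had 3, Hsp90aa1, Hspa5 and Hspa8 had 1 each, and Hsp90ab1, Hspa2, Hspa4l and Hspa9 had 0. Without Hspa1l the share was 10 of 1519, or 0.658% (0.316 to 1.21). Of the antisense sequences of Hspa1l, 27 began with U, and 12 were sense to Gm10501, a gene annotated on the opposite strand of chromosome 17. Gm10501 had 21 sense and 64 antisense sequences, listed between 35113891 and 35118657. Sense sequences of Hspa1l that lie in exons of Gm10501 are counted among these 64, so they are not a separate set of small RNAs.

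Pairs of a sense and an antisense sequence whose 5′ ends overlap by 10 nt are the mark of ping-pong, the mutual cutting of piRNAs from opposite strands. In the 10 genes 1 such pair was found, in the coding region of Hspa1l, and overlaps of 1 to 20 nt had from 0 to 3 pairs each. The pair is shown with its 10 overlapping bases in capitals: the sense sequence lies at chr17:35114288-35114314 on the plus strand and the antisense sequence at chr17:35114270-35114297 on the minus strand (mm9). The antisense sequence begins with U (written T) and the sense sequence has A at base 10. At an overlap of 10 nt these bases face each other, so the A follows from the U and is no separate sign of ping-pong.
Hspa1l sense: GGAGATCTCAtccatggtactgacgaa
Hspa1l antisense: TGAGATCTCCtctgggtagaaggctttc
With 1 pair at 10 nt and as many as 3 pairs at 5 nt, no excess at 10 nt was detectable in these genes.

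The sequences followed the spliced exons of the genes far more than the rest of the genes' length. Within the stretches of the genome from the first to the last sense sequence of each gene, 144515 nt in all against 44848 nt of merged exon, 64 other listed sequences matched no exon of the gene. Of these 32 lay in Hspa4, 22 of them within 2000 nt of the 5′ end of the gene's sequences, 16 in Hspa1l and 5 in Hspd1, and the other 7 genes had 0 to 3 each. Sequences that cross an exon junction numbered 11 in all (7 in Hspa4, 2 in Hsp90ab1 and 2 in Hspa5), each with 1 to 3 bases on the shorter side, although 7.19% of 27-nt stretches cross a junction. The list gives each sequence 1 unbroken interval of the genome, which a sequence spanning an intron cannot have. A further 25 sequences matched a chaperone transcript but were listed on another chromosome and were not counted: 12 for Hspa9, 5 for Hsp90ab1, 5 for Hspd1 and 3 for Hsp90aa1.

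The partners of these chaperones ranged more widely than the 10 genes, from 0 to 113 per kb of merged exon. Of 74 other genes of the chaperone system 70 had listed sense sequences, against 71% of protein-coding genes. There were 63 above the median of protein-coding genes, which 50% of those exceed, and 24 with 100 or more sequences, against 14.5%. Their median was 14.9 per kb of merged exon, below the 29.4 of the 10 genes. The organelle HSP90s had the highest class median, 103: Hsp90b1 of the endoplasmic reticulum had 111 per kb and Trap1 of mitochondria had 93.7. The HSP60 partner Hspe1 and the 9 genes of the cytosolic chaperonin listed with it had a median of 38.2, from 10.2 in Hspe1 to 96.2 in Cct5, and 8 of the 10 had 100 or more sequences. The 8 other HSP70-type genes had a median of 8.96, from 1.36 in Hspa12b to 27.8 in Hspa13. The stress-induced genes Hspa1a and Hspa1b, near-identical copies of each other next to Hspa1l, had 7.08 and 5.71 per kb, and sequences common to both could be lost or split between them.

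Among co-chaperones, the 12 exchange factors and regulators of HSP70 had a median of 19.2 per kb, from 3.92 in Bag2 to 102 in Bag1. The 15 HSP40 genes had a median of 12.5, from 1.46 in Dnajb7 to 38.7 in Dnaja2. The 11 co-chaperones of HSP90 had a median of 14.9, from 0 in Unc45b, which acts on muscle myosin, to 113 in Stip1, which links HSP70 to HSP90. Fkbp6, a testis co-chaperone of HSP90 that is known to act in the piRNA pathway of mice, had 63.9. Small heat shock proteins were the lowest class, with a median of 2.81 over 10 genes, from 0 in Cryaa and Hspb7 to 17.9 in Hspb9, a testis form. The 6 heat shock factors and their binding partners had a median of 9.56, with Hsf4 at 0 and Hsbp1 the highest at 37.6, and no gene of the last 2 classes had 100 or more sequences.

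**Figure D5:**
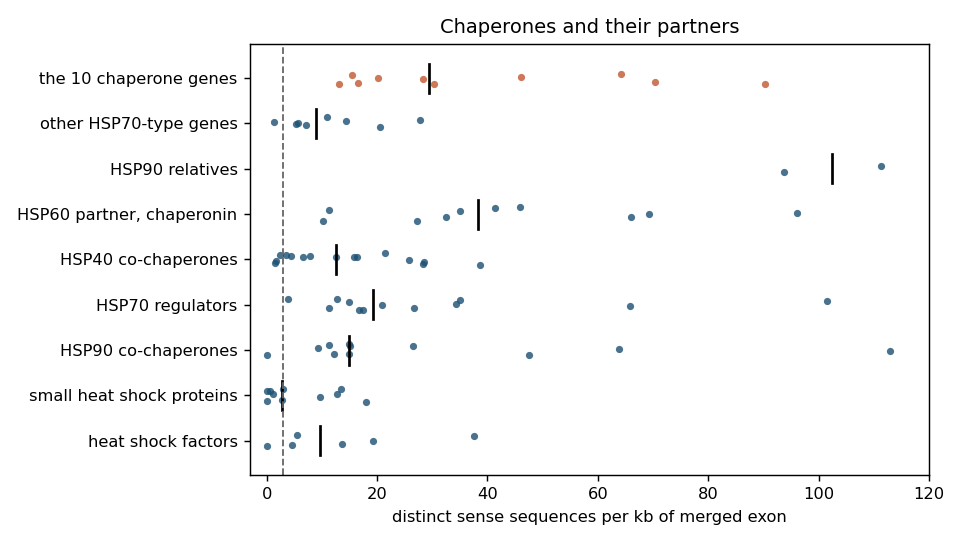
Sense sequences per kb of merged exon for the 10 chaperone genes (top) and for 74 partner genes by class, each point a gene and each black bar the class median, beside the median of all protein-coding genes (dashed, 2.89). The class median is highest for the 2 HSP90 relatives (93.7 and 111) and lowest for small heat shock proteins (2.81), and the highest single gene is Stip1 at 113.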

How the data were processed

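Small RNAs from 3 immunoprecipitates of mouse testis, 1 library per group, are pooled in the table that the authors deposited, a list in which each distinct sequence stands once with a chromosome and an interval. The deposited values are positions and sequences, with no count, score or other level. Positions are on NCBI build 37 per the file headers, named mm9 in the submitters' processing notes. The sources used here do not give the aligner, its mismatch setting or how sequences that fit several positions were handled.

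Python 3.11.15 with numpy 2.4.6, pandas 2.3.3 and scipy 1.17.1 was used. Each sequence was matched to both strands of GENCODE vM21 transcripts by an exact 18-nt seed and then base by base over its whole length. Matching by sequence avoids mixing builds, since that annotation describes GRCm38. Strand was taken from the match. Regions were set by the midpoint of a sequence in the annotated coding transcripts. Expected shares were set by the length of these transcripts, averaged over all matches of sequences to them. First bases were read in sequences of 24 to 32 nt. Copied stretches were searched among annotated transcripts only, as no genome of the build was used. The matching was tested on simulated data.

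Genes named are all 10 chaperone genes, the densest and least dense gene of each partner class and those with 0 sequences. Hspa1a, Hspa1b, Fkbp6 and 4 Leydig cell markers were named after their values were seen. The members and the lists were chosen with earlier results of these data known. With 1 library per group and no library given in the list, no test was made and no paired analysis was possible. Alternatives were the counting of each 5′ end once, other transcript lengths, only sequences of a single gene and another rule for regions. The age of 15 days after birth and the gel range of 28 to 30 nt are from the labels.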

Additional observations from a re-analysis of the deposited data

How the results depend on the processing

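Of 20 alternative values over 7 results, 13 moved by less than their 95% interval or by less than 1.5 times a count, and 0 changed direction. Counting each 5′ end once gave 49.1% beginning with U (54.3% by sequence), a median density of 21.4 per kb (29.4 by sequence) and 77.2% of 24 to 28 nt (74.9% by sequence). Of settings chosen after seeing the data, the single-copy stretches of the longest coding transcript gave a median density of 58.9 per kb and all stretches of that transcript 36.0. The planned setting with the longest transcript as length gave 35.6, which counted as not moved, so 35.6 and 36.0 fall on either side of the limit. The removal of copies thus moved the median more than the choice of transcript. Also after seeing the data, leaving out Hspa1l gave an antisense share of 0.658%. Leaving out Hspa4l gave 12.3% in the 3′ untranslated region. No paired analysis was possible because the list carries no library and each group has 1 library. The unknown depth limits all values: a gene with few listed sequences may have been sampled less, and abundance cannot be read from the list.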
